A study of Mus musculus with 15 samples.

Results

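Paraxial mesoderm is the tissue beside the embryonic midline that is cut into somites, and its head end feeds the muscles and connective tissue of the face and neck. Cells leave the primitive streak, pass through a presomitic state marked by the T-box factor *Tbx6* and by cycling Notch signalling, and are then segmented under *Mesp2* and the *Ripply* genes, while *Meox1*, *Tcf15*, *Foxc1* and *Foxc2* mark the paraxial and somitic state. The same cells make retinoic acid through the dehydrogenase encoded by *Aldh1a2*, and retinoic acid acts on the 3′ Hox genes and opposes the FGF and Wnt signals of the tail end. The bHLH factor MESP1 acts in the earliest mesoderm to leave the streak, and its closest relative, MESP2, acts in somite segmentation.

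The cells described here were those with at least 1 unique molecular identifier (UMI, 1 per captured transcript) of *Meox1*, a homeobox factor of the somites, together with at least 1 UMI of any of 4 partner genes: *Tcf15*, a bHLH factor of the somitic epithelium, the forkhead factors *Foxc2* and *Foxc1*, and *Aldh1a2*. Of 93701 kept cells in the series, 4045 passed, or 4.32%. Kept cells had under 10% mitochondrial UMIs, under 50000 UMIs and between 200 and 7000 detected genes. The cells were thus chosen by the UMI counts of 5 genes, and the presence of those genes in them is a description and not a result. The cells are set against other cells without a test throughout.

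The series holds single-cell 5′ RNA libraries of 15 whole mouse embryos on a C57BL/6J background, 1 library per embryo, between E6.0 and E7.75. The 12 control embryos kept at least 1 working copy of *Mesp1* (*Mesp1* Cre/+ or +/+), and the 3 *Mesp1* KO embryos were *Mesp1* Cre/Cre, in which a Cre knock-in disrupts both copies. Both genotypes carried *Smarcd3*-F6::eGFP, an enhancer transgene at the *Hipp11* locus, and *Rosa26R*-Ai14, a reporter that Cre switches on in descendants of *Mesp1*-expressing cells, except that 2 controls, early E7.5 replicate 1 and late E7.5 replicate 1, lacked Ai14. Embryos were staged by morphology. The early stage held 5 controls (3 at E6.0, 1 at late E6.0, 1 at E6.5) and the E6.5 KO, the middle stage held 3 controls (late E6.5, E7.0, early E7.5) and the E7.0 KO, and the late stage held 4 controls (2 at late E7.5, 2 at E7.75) and the late E7.5 KO. There was thus 1 KO embryo at each stage, and the Cre allele that marks the lineage is also the allele that removes the gene.

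Library depth ran from 13058356 to 379177866 UMIs. The late KO and E7.75 control replicate 1 came from the same experiment and were shallower than the other late embryos, with a median of 3827 and 3925.5 UMIs per kept cell against 14063 to 19739. *Mesp1* itself gave 0 UMIs in the E6.5 KO, 1 UMI in the E7.0 KO and 5 UMIs in the late KO. Of 93771 barcode sequences, 5487 occurred in more than 1 library, at most 3.80% of the smaller library of any pair. Scrublet marked 9988 kept cells (10.7%) as doublets, and 580 of the 4045 *Meox1* partner cells (14.3%).

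*Meox1* lies on chr11:101877510-101894374 on the minus strand, *Tcf15* on chr2:152143561-152149097, *Foxc2* on chr8:121116171-121118895, *Foxc1* on chr13:31806633-31812476 and *Aldh1a2* on chr9:71215789-71296243, the last 4 on the plus strand (GRCm38, GENCODE vM21 gene models). The sequence before the start of *Aldh1a2* is shown because this gene admitted the most cells to the group and was the most reduced of the 5 in the late KO. It covers the 250 bases upstream of the start, chr9:71215539-71215788 on the plus strand, from RefSeq on GRCm38.p6. Capitals mark the letters CANNTG, the E-box that bHLH factors such as TCF15 and the MESP proteins are known to bind. The motif reads as CANNTG on both strands.

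Aldh1a2 promoter: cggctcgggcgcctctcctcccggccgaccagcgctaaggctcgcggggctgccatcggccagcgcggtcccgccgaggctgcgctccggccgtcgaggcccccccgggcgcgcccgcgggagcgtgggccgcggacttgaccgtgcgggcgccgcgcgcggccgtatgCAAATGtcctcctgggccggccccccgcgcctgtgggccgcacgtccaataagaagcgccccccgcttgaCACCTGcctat

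The 2 matches start 81 and 11 bases before the gene's start. Of 32851 mouse promoter windows of the same length, 66.2% held at least 1 match and 31.8% held at least 2, so their presence is common. Entries were at hand for 2 of the 5 genes, and the *Foxc1* window held 0 matches.

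The cells were nearly all from controls at early E7.5 or later. Of the 4045 cells, 3695 came from the 4 late controls, 332 from the middle controls, 16 from the early controls and 2 from the 3 KO embryos together, which held 16220 kept cells. Among the early controls, E6.0 replicate 1 held 2 such cells, E6.5 held 14 (0.351% of its kept cells) and the other 3 held 0. In the middle controls the share was 0.235% at late E6.5 (5 cells), 0.466% at E7.0 (26 cells) and 5.14% at early E7.5 (301 cells). Almost the whole middle-stage total thus sat in the oldest of its embryos.

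In the late controls the share was 4.62% (313 of 6768 cells) and 5.41% (1205 of 22277) at late E7.5, and 4.47% (666 of 14884) and 11.3% (1511 of 13414) at E7.75, a mean of 6.44% ± 3.24 (SD, n = 4). The late KO held 0 of 12853 cells, which allows a share of up to 0.0233%, while the E6.5 KO and the E7.0 KO held 1 cell each (0.0591% and 0.0597%). E7.75 replicate 2 stood far above the other 3 late controls, and the KO stood below all 4.

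The difference between KO and control shares, averaged over stages, was -2.79 percentage points (exact permutation test within stages, two-sided, p = 0.0833, the smallest possible being 0.00833). At the late stage alone it was -6.44 points (exact permutation test, two-sided, p = 0.4), where 1 embryo against 4 cannot go below 0.2. The mean difference over stages was therefore not past 0.05, and it rests on the late stage. Over the early and middle stages alone, with every late embryo left out, it was -0.962 points (exact permutation p = 0.417).

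Depth affects a rule built on single UMIs. When each cell was thinned to 2000 UMIs and shallower cells were left out, the late controls gave 0.571%, 2.32%, 2.53% and 4.62%, in the order above, and the KO gave 0 of 10727 cells, which allows up to 0.0280%. The thinned shares of the late controls thus spanned a wider ratio than the full ones, with late E7.5 replicate 1 lowest. Cells of the visceral endoderm, which should lack these genes, passed the rule at 0.563%, 1.72%, 1.05% and 2.34% in the late controls, at median depths of 20837, 20007, 6798.5 and 16968 UMIs, against 21923, 22307, 4654.5 and 21868 in the *Meox1* partner cells. In every late control the share over all cells was above that in visceral endoderm. The early shares, at or under 0.351%, stood near the 0.155% of visceral endoderm cells that passed at E6.5.

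**Figure D1:**
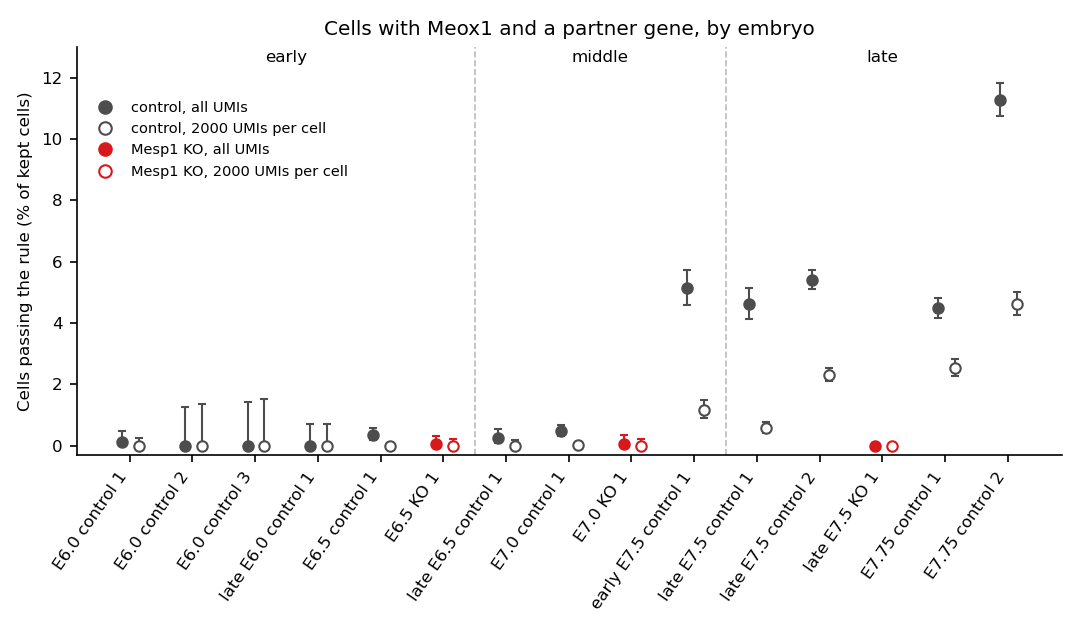
Share of kept cells (percent, y axis) with *Meox1* and at least 1 partner gene in each of the 15 embryos (x axis), with all UMIs (filled) and after thinning to 2000 UMIs per cell (open). Bars are 95% Clopper-Pearson intervals, which cover counting error only; the late KO is at 0 by both measures and the late controls lie between 4.47% and 11.3% with all UMIs.

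The experiment that held the late KO also held E7.75 control replicate 1, at nearly the same depth per cell. In that pair the control had 666 cells of the rule and the KO had 0. Cells with a partner gene and no *Meox1* numbered 2158 in the control and 149 in the KO, and cells with *Meox1* and no partner numbered 178 and 25. Both sides of the rule were thus scarcer in the KO of this pair, although the embryos differed in age by label.

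The 25 KO cells with *Meox1* alone each held 1 *Meox1* UMI. *Crabp1*, a cellular retinoic acid binding protein, was detected in 10 of the 25 KO cells and in 82.6% of the 178 control cells. *Crabp2*, its relative, was detected in 0 of the 25 and in 47.2% of the control cells. *Meis2*, a homeobox partner of Hox proteins, was detected in 1 of the 25 and in 51.1%. *Krt8*, a keratin of surface and extra-embryonic epithelia, was detected in 15 of the 25 and in 31.5%, and *Hand1*, a lateral plate and extra-embryonic mesoderm factor, in 11 of the 25 and in 15.2%. Over all kept cells of the same embryos, *Crabp1*, *Crabp2* and *Meis2* were also lower in the KO, and *Krt8* and *Hand1* also higher. As a share of all UMIs, the log2 ratio of KO to control was -3.59, -3.23, -2.13, 0.994 and 1.37, in that order. Whether the 25 cells differed beyond their whole embryos was not tested. Over the 25 somite and segmentation genes the share of cells with a UMI was lower in the 25 KO cells for 12, higher for 8 and equal for 5. Among those higher were *Efnb2*, an ephrin ligand, in 4 of the 25 against 0.562%, and *Hes1*, a Notch target, in 6 of the 25 against 16.3%. The count says little, since so few cells can miss a rare gene. *Tbx18* and *Dmrt2* counted as lower at 0 of the 25 against 0.562% of the control cells. No such count was made over all genes. Median depth was 4303 UMIs in these KO cells and 4338.5 in the control cells, and with 1 embryo on each side there is no test.

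Which partner brought a cell into the group differed between ages. Over all 4045 cells *Aldh1a2* was detected in 87.5%, *Foxc2* in 70.1%, *Tcf15* in 39.6% and *Foxc1* in 35.7%. All 4 partners were detected in 651 cells (16.1%), and a single partner in 1056 (26.1%), of which 755 had *Aldh1a2* alone.

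*Aldh1a2* was detected in 0 of the 14 cells at E6.5, in 3 of the 26 at E7.0 (11.5%) and in 93.0% at early E7.5. In the late controls it was detected in 82.4% and 91.3% at late E7.5 and in 72.5% and 93.6% at E7.75. The cells of E7.0 and before therefore passed mostly through *Foxc2* and *Tcf15*, each found in 17 of the 26 cells at E7.0, and those from early E7.5 mostly through *Aldh1a2*.

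*Foxc2* varied little over the late controls, at 60.4%, 77.0%, 74.3% and 68.6%. *Tcf15* varied more, at 51.1% and 31.3% at late E7.5 and at 10.1% and 54.6% at E7.75. Summed over the same cells, *Tcf15* stood at 165, 25.8, 22.9 and 298 CPM, the UMIs of a gene per 1000000 UMIs of the same cells. The low pair, late E7.5 replicate 2 and E7.75 replicate 1, came from 2 other experiments than the high pair, which shared an experiment. The part of the experiment in this gene's level was not tested, and the cells of E7.75 replicate 1 were shallower than the rest.

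**Figure D2:**
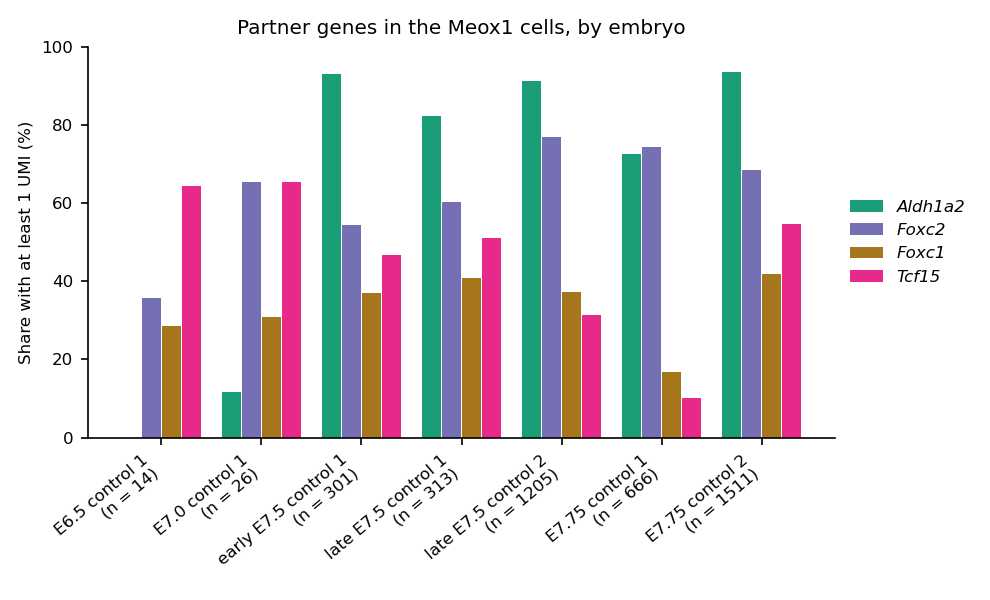
Share of the *Meox1* cells (percent, y axis) with at least 1 UMI of each partner gene, in the 7 control embryos with at least 10 such cells (x axis, n = cells). *Aldh1a2* is at 0 at E6.5 and at 93.0% by early E7.5, and *Tcf15* is lowest in E7.75 replicate 1, at 10.1%.

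A presomitic rule of the same form (at least 1 UMI of *Tbx6* and at least 1 of *Msgn1*, *Hes7*, *Dll1* or *Dll3*) was met by 84.1% of the *Meox1* partner cells at early E7.5. It was met by 76.4% and 29.0% of them at late E7.5 and by 9.16% and 56.8% at E7.75, the lowest being the shallow library. Visceral endoderm cells met it at 0.988% at early E7.5 and at 2.48%, 2.17%, 0.699% and 3.77% in the late controls. A lateral plate rule (*Foxf1* with *Hand1*, *Hand2*, *Bmp4* or *Tbx20*) was met by 15.7%, 7.80%, 0.450% and 25.6% of the *Meox1* partner cells in the late controls. *Foxf1*, which that rule needs, stood at 51.6, 6.53, 3.78 and 57.8 CPM over the whole of these embryos. The high pair shared an experiment, and the part of the experiment in these shares was not tested. Late E7.5 replicate 1 also held the highest levels of early genes. In its *Meox1* partner cells *Pou5f1*, the pluripotency factor, stood at 793 CPM, against 67.2, 17.7 and 232 in late E7.5 replicate 2 and the E7.75 replicates, and the streak factor *T* at 443 CPM, against 19.2, 7.02 and 66.2.

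At the edge of the rule, 269 members had 1 *Meox1* UMI and 1 partner UMI. Just outside it, 1009 cells had *Meox1* and no partner, and 15543 had a partner and no *Meox1*. The largest *Meox1* count in a cell was 67, and the median per member was 1 in late E7.5 replicate 1, 3 in late E7.5 replicate 2, 2 in E7.75 replicate 1 and 3 in E7.75 replicate 2.

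Besides the 5 genes of the rule, 15 others completed the 20 genes with the highest level in these cells over all other cells, ranked by the lowest ratio over the 4 late controls among genes averaging at least 20 CPM. They were *Ripply2*, *Pcdh8*, *Mesp2*, *1100001G20Rik*, *Arg1*, *Pcdh19*, *Emid2*, *Rasgrp3*, *Stra6*, *Pdgfra*, *Dact1*, *Lrig1*, *Ptgds*, *Dll1* and *Hoxa2*. The level asked of a gene was that in the *Meox1* partner cells themselves, so the ranking is a description and no support for the name of the cells.

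*Ripply2*, which ends the segmentation signal at each new somite border, stood at 30.8, 43.6, 16.5 and 69.7 CPM in the cells of late E7.5 replicates 1 and 2 and E7.75 replicates 1 and 2. It averaged 1.10 CPM in all other cells, and its lowest ratio was 9.73. *Mesp2*, which sets the somite border, stood at 15.5, 20.6, 26.9 and 24.9 CPM against a mean of 1.02, and *Pcdh8*, a protocadherin of the forming somite, at 26.9, 28.3, 24.4 and 48.8 CPM against 1.79. That all 4 late controls showed the 3 genes well above the rest follows from the ranking, which used the lowest ratio over these embryos. *Pcdh19*, another protocadherin, stood at 136, 73.7, 41.2 and 133 CPM, and *Dll1*, a Notch ligand of the presomitic mesoderm, at 140, 76.4, 54.0 and 125. Both were highest in the 2 embryos with the most presomitic overlap, which shared an experiment. *Dll1* is a gene of the presomitic rule, so for *Dll1* this follows in part from the rule.

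*Pdgfra*, a growth factor receptor of early mesoderm, was the most even of the leading genes, at 51.6, 61.6, 59.8 and 56.6 CPM against a mean of 14.6 elsewhere. *Stra6*, the membrane receptor that takes up vitamin A, stood at 22.2, 49.8, 42.4 and 45.4 CPM against 9.38. *Arg1*, an arginase, was uneven, at 13.1, 320, 204 and 201 CPM, with late E7.5 replicate 1 far below the other 3. The unnamed gene *1100001G20Rik* was at 0.428 CPM in late E7.5 replicate 1 and at 40.7, 52.2 and 18.2 in the others, so its place rests on ratios to a low background.

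**Figure D3:**
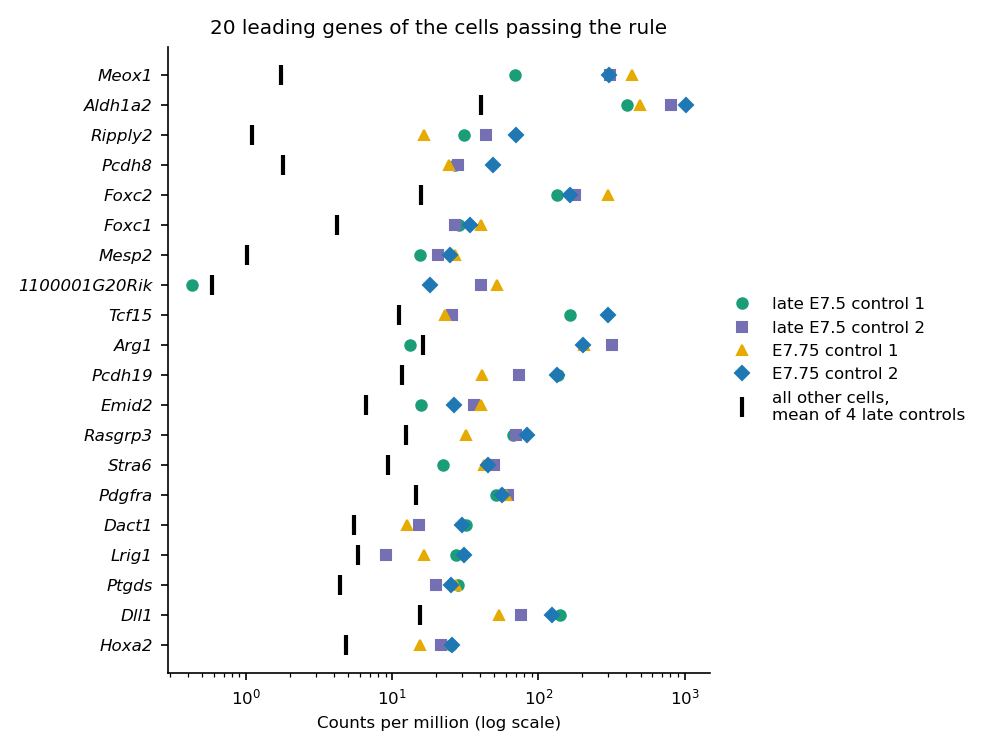
Level (CPM, log x axis) of the 20 leading genes (y axis, 5 of them used by the rule) in the *Meox1* partner cells of each late control, with the mean of all other cells as a black bar. For 18 of the 20 genes all 4 points lie right of the bar; *1100001G20Rik* and *Arg1* lie left of it in late E7.5 replicate 1, whose own other cells were lower still.

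The gene lists were counted without letting a gene enter through the cells where it was high, a choice made after the values were seen. Genes higher in the *Meox1* partner cells of every late control were counted over genes averaging at least 5 CPM in all other cells, where 23.6% of 9331 were higher, and lower genes over those averaging at least 5 CPM in the *Meox1* partner cells, where 21.8% of 9128 were lower. Of the somite and segmentation genes 8 of 12 were higher and 2 of 19 lower, and of the retinoic acid pathway genes 8 of 14 were higher and 1 of 14 lower. Of the presomitic genes 6 of 17 were higher and 2 of 17 lower, of the cranial and pharyngeal mesoderm genes 4 of 9 and 2 of 13, and of the matrix and adhesion genes 5 of 12 and 1 of 11. Of the FGF, Notch and Wnt genes 5 of 21 were higher and 3 of 23 lower, a higher share near that of all genes and a lower share below it.

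Counted in the same way, 6 of 8 lateral plate genes, 5 of 6 endoderm genes, 2 of 6 cardiomyocyte genes and 1 of 4 epiblast and streak genes were lower. The other lists of other cell types held too few genes at this level to count, with 2 or 3 each in blood, endothelium, intermediate mesoderm, neural and surface ectoderm and extra-embryonic ectoderm. The genes of other cell types were not at 0. The embryonic globin *Hbb-bh1* stood at 3.56, 788, 6.41 and 127 CPM in the *Meox1* partner cells of the 4 late controls, and *Ttr*, a visceral endoderm gene, at 41.3, 224, 80.9 and 109. Late E7.5 replicate 2 held the most of both. Of its *Meox1* partner cells 19.3% were marked as doublets, close to the 18.5% of all its kept cells. The part of such transcripts from other cells in these values was not tested.

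Retinoic acid genes are given here by step: synthesis, binding, response and removal. *Aldh1a2* stood at 402, 803, 493 and 1018 CPM in the *Meox1* partner cells of the late controls, after 603 at early E7.5, 4.18 at E7.0 and 0 at E6.5. *Crabp1* stood at 416, 936, 1766 and 991 CPM, against 169, 296, 1078 and 250 in all other cells of the same embryos. *Rarb*, a retinoic acid receptor and target, stood at 3.42, 27.8, 10.7 and 17.3 CPM, with late E7.5 replicate 1 lowest. *Cyp26a1*, which degrades retinoic acid, stood at 28.1, 10.8, 5.19 and 15.1 CPM, against 25.3, 26.0, 16.3 and 41.9 elsewhere, and so was lower than elsewhere in 3 of the 4.

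Against other cells that met the presomitic rule, counted in the same way, 6 of 12 somite and segmentation genes were higher and 1 of 19 lower in all 4 late controls, beside 17.6% of 9087 genes and 14.5% of 9128. Of the presomitic genes, a list that holds the genes of that rule, 0 of 17 were higher and 10 of 17 lower. *Ripply2* was higher by a median log2 ratio of 3.35 (1.003 to 5.47 over the embryos), *Mesp2* by 3.09 (0.65 to 3.92) and *Pcdh8* by 2.66 (0.79 to 3.99). *Twist1*, a bHLH factor of cranial and somitic mesenchyme, was higher by 2.48, and *Pax3*, a factor of the dorsal somite, by 1.91. *Ripply2*, *Mesp2* and *Pax3* averaged 4.80, 3.64 and 4.77 CPM in the other presomitic cells. They were thus not among the 12 genes counted, and their ratios are a description only. The gene of the list that was lower was *Snai1*, a repressor of epithelial genes, at -0.36 (-0.68 to -0.06), and *Lfng*, a modifier of Notch, ran both ways (-0.84 to 0.32). These streak and tail-bud genes were lower: *Cdx4*, a caudal homeobox factor, stood at a median log2 ratio of -3.14 (-3.74 to -2.42), *T* at -2.75 (-3.85 to -0.63), *Wnt3a* at -2.61 (-3.95 to -0.73) and *Fgf8* at -1.43 (-2.75 to -0.73). For most of these genes the smallest difference was in late E7.5 replicate 1, where *T* stood at 443 CPM in the *Meox1* partner cells and 685 in the other presomitic cells.

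Against other cells that met the lateral plate rule, 4 of 10 somite and segmentation genes were higher and 1 of 19 lower in all 4 late controls, beside 19.8% of 9059 genes and 22.1% of 9128. *Ripply2* was higher by a median log2 ratio of 4.70 and *Pcdh8* by 4.62, and *Tbx6* by 2.19. *Ripply2* and *Pcdh8* averaged 0.567 and 0.732 CPM in the lateral plate cells. They were thus not among the 10 genes counted, and their ratios are a description only. *Hand1* stood at 50.5, 42.8, 14.95 and 71.7 CPM in the *Meox1* partner cells and at 603, 588, 433 and 577 in the lateral plate cells. A pair of lateral plate genes that neither rule used, *Pmp22*, a membrane protein gene, and *Ahnak*, a scaffold protein gene, stood at median log2 ratios of -3.95 and -4.07. *Bmp4*, a ligand that promotes lateral over paraxial fate and is in the lateral plate rule, stood at 11.5 CPM on average against 114.

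Among the members themselves, cells that also met the presomitic rule differed from those that did not. They held more *Msgn1*, a presomitic bHLH factor (median log2 ratio 4.56), *Rspo3*, a Wnt co-ligand (2.86), and *Ripply2* (2.56), the first being a gene of that rule. They held less *Tbx1*, a factor of pharyngeal mesoderm (-2.59), *Tcf21*, a bHLH factor of head muscle precursors (-2.61), *Prrx1*, a mesenchyme factor (-2.32), and *Tcf15* (-1.34). Each of these ran the same way in all 4 late controls.

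Cells with a *Tcf15* UMI held more *Ripply1* (median log2 ratio 2.18), *Dmrt2*, a factor of the dermomyotome (1.76), and *Pax3* (1.60) than those without, and less *Msgn1* (-2.40) and *Cdx2*, a caudal factor (-1.51). Cells with an *Aldh1a2* UMI held more *Ripply2* (4.57), *Msgn1* (3.93), *Dll1* (3.70) and *Hoxb1* (1.73) than those without, and less *Tbx1* (-2.69) and *Cyp26a1* (-1.86). Both splits use genes of the rule, so members without *Aldh1a2* had to hold another partner, and the differences are a description only. A cell with a detected gene tends to be deeper. CPM is scaled to each set's own total, which does not undo a choice of cells by depth. The part of depth in these differences was not tested.

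Genes of later somite patterning were low or uneven. *Uncx*, a factor of the caudal part of each somite, was at 0 CPM in late E7.5 replicate 1 and at 5.49, 7.32 and 1.41 in the other late controls. *Tbx18*, of the rostral part, was at 0 and then at 8.73, 9.46 and 2.64 CPM, and *Meox2*, the relative of *Meox1*, at 0.570, 7.08, 7.32 and 1.20. *Pax3* stood at 1.996, 42.1, 35.7 and 16.4 CPM. Late E7.5 replicate 1 was lowest for all 4 genes.

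Hox genes are numbered by their order along each cluster from 3′ to 5′. The plot of Hox genes holds the 26 reported here that averaged at least 5 CPM in the *Meox1* partner, presomitic or lateral plate cells. Of the 13 in paralogue groups 6 to 11 only 2 reached that level in the *Meox1* partner cells. The other 11 entered through a neighbouring cell set, where they were high, so no count is drawn from the plot.

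*Hoxa2* stood at 25.2, 21.4, 15.6 and 25.5 CPM in the *Meox1* partner cells and at 7.92, 4.12, 5.98 and 5.62 in lateral plate cells. *Hoxb6* ran the other way, at 2.85, 13.1, 5.80 and 17.6 CPM against 68.1, 98.2, 96.9 and 134. Low-numbered genes ran both ways against lateral plate cells. The median log2 ratio was 1.78 for *Hoxa2*, -1.61 for *Hoxd1* and -1.38 for *Hoxd3*. *Hoxb9* stood at 1.14, 7.11, 3.97 and 6.91 CPM, and reached 58.9, 52.2 and 53.9 in the presomitic cells of the last 3 embryos against 2.76 in those of late E7.5 replicate 1.

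**Figure D4:**
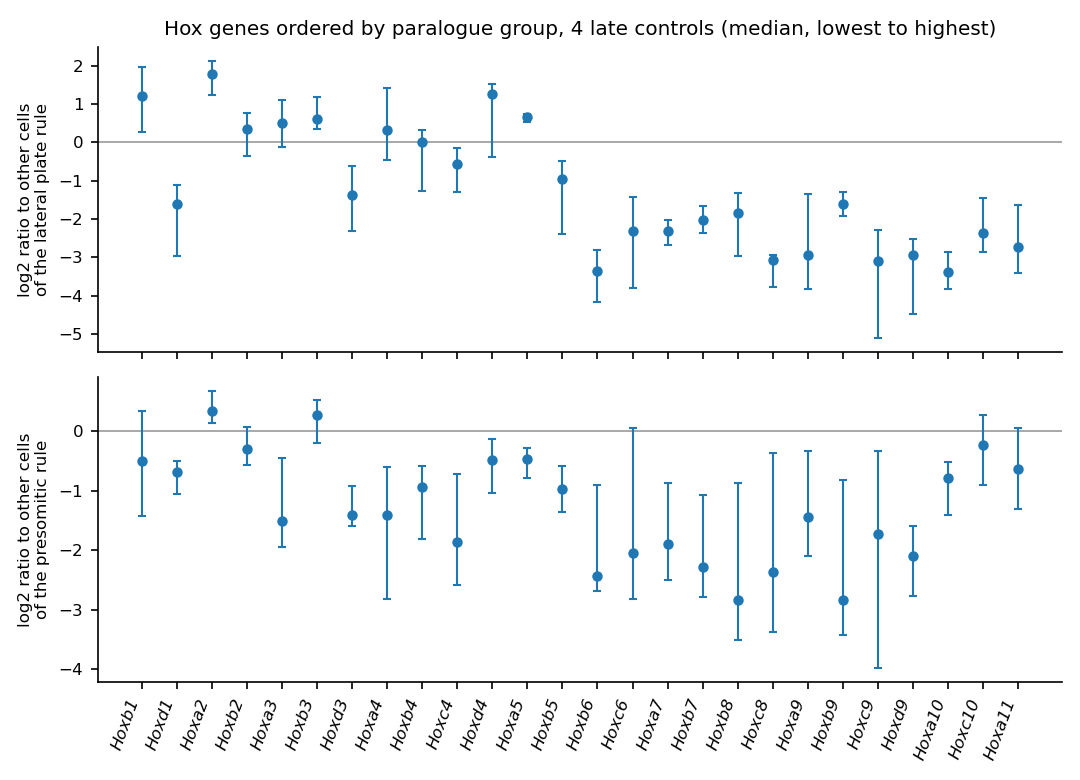
log2 ratio of CPM (y axis) between the *Meox1* partner cells and other cells of the lateral plate rule (top) or the presomitic rule (bottom) for 26 Hox genes ordered by paralogue group (x axis). Points are medians and bars the lowest to highest of 4 late controls. Genes that reached 5 CPM in any of the 3 cell sets are shown. Against the lateral plate the median is 1.78 for *Hoxa2* and -3.35 for *Hoxb6*.

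The Ai14 reporter, which marks descendants of *Mesp1*-expressing cells, was higher in these cells than in the rest of the same embryo. In the 3 late controls that carried it, it stood at 42.6, 27.8 and 41.0 CPM in the *Meox1* partner cells of late E7.5 replicate 2 and E7.75 replicates 1 and 2. All other cells held 23.5, 11.4 and 22.8 CPM, other presomitic cells 8.46, 3.78 and 12.8, and other lateral plate cells 54.9, 18.0 and 54.8. The *Meox1* partner cells thus lay above the presomitic cells in all 3 embryos, and below the lateral plate cells in 2 of the 3. eGFP of *Smarcd3*-F6 stood at 8.84, 12.4, 9.15 and 14.2 CPM in the 4 late controls, against 9.36, 9.49, 6.33 and 10.98 in all other cells.

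Change with age was tested within controls, on counts summed per embryo over the *Meox1* partner cells, with edgeR. The 7 embryos with at least 10 such cells entered: E6.5, E7.0, early E7.5 and the 4 late controls, and the contrast was the 4 late controls against the 2 middle ones. Of 13513 genes tested, 0 (0%) were called at an adjusted p below 0.05 with edgeR and 0 with DESeq2, and 360 (2.66%) had an unadjusted p below 0.05 with edgeR, 432 with DESeq2.

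None of the genes named next passed the test. *Ripply2* stood at 6.97 CPM at E7.0 and 9.90 at early E7.5, below the late range of 16.5 to 69.7, but at 19.6 in E6.5, within that range (log2 fold change 2.29, SE 0.51, unadjusted p = 0.00292 and adjusted p = 0.895 by edgeR). *Dmrt2* stood at 0 and 0.386 CPM, against 0.428 to 27.2 in the late controls. The 0.386 at early E7.5 and the 0.428 in late E7.5 replicate 1 are not apart. Each rests on a few UMIs, out of 7780335 and 7015225. *Mesp1* ran the other way, from 345 CPM at E7.0 and 143 at early E7.5 to between 11.4 and 106 in the late controls, and *Tdgf1*, a Nodal co-receptor, from 166 and 4.50 to between 0 and 6.41. Early E7.5 and late E7.5 replicate 1 stood close to each other in *Tdgf1* and in *Pou5f1*, at 754 and 793 CPM. The median log2 change was 0.93 over 25 Hox genes, 0.90 over 23 somite and segmentation genes, -0.71 over 17 presomitic genes and -1.89 over 7 epiblast and streak genes, beside 0.04 over all genes tested. Lists of other cell types had medians of 5.43 over 5 blood genes, 2.82 over 3 intermediate mesoderm genes, 1.75 over 7 endothelial genes and 1.35 over 8 cardiomyocyte genes, and their part in these values was not tested.

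Because the late KO held no cell of the rule, its genes could not be compared within these cells. The same genes were read instead from sums over all kept cells of each embryo, where fewer cells of a type and less RNA per cell cannot be told apart.

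*Meox1* stood at 4.09 and 24.3 CPM in the whole late E7.5 controls, at 27.1 and 38.7 in the E7.75 controls and at 0.485 in the late KO (25 UMIs). *Aldh1a2* stood at 60.1, 89.4, 64.0 and 170 CPM in the same controls and at 0.330 in the KO (17 UMIs), and *Tcf15* at 38.9, 2.34, 1.86 and 47.3 against 0.213 (11 UMIs). *Foxc2* stood at 25.3, 22.5, 37.4 and 29.7 CPM against 1.51, and *Foxc1* at 5.88, 4.57, 6.40 and 8.56 against 1.18. For all 5 genes the KO lay below all 4 controls, and over the 18290 genes tested 36.8% did. *Mesp1* stood at 60.4, 3.21, 4.55 and 12.3 CPM in the controls against 0.0970 in the KO, where the Cre knock-in disrupts both copies, so no test is given for it.

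The rule used the counts of these 5 genes, and the KO's lack of such cells follows from the same counts, so their levels are given as a description with no test.

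**Figure D5:**
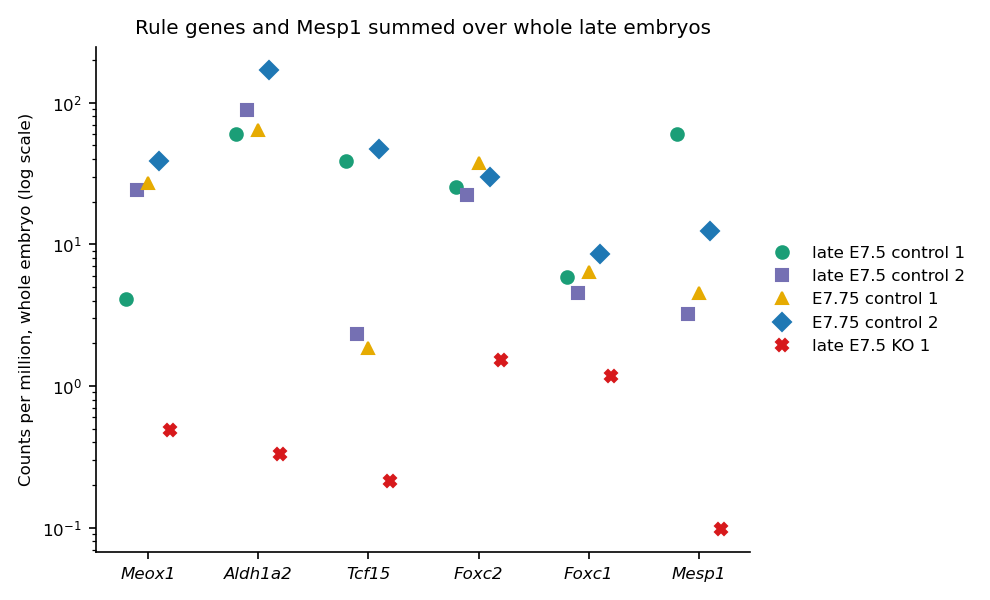
Level (CPM summed over all kept cells, log y axis) of the 5 genes of the rule and of *Mesp1* (x axis) in the 4 late controls and the late KO, 1 point per embryo. The KO is the lowest embryo for each of the 6 genes.

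Over all 18290 genes the edgeR fit called 0 genes lower (0%) and 6 higher (0.0328%) in the late KO, with 643 (3.52%) and 769 (4.2%) at an unadjusted p below 0.05, while DESeq2 called 54 lower and 68 higher. The 6 were *Ndufa4l2*, a mitochondrial subunit gene, *Asb4*, an ankyrin repeat gene, the trypsin genes *Prss1* and *Gm5771*, members of a family of near-identical copies whose reads cannot be told apart with certainty, and the neural genes *Stmn4* and *L1cam*. None belongs to the somitic lists. The late KO is 1 embryo, so the spread behind these calls came from the control embryos. *Ndufa4l2* rose from between 5.96 and 10.2 CPM to 59.7 (log2 fold change 3.29, SE 0.35, edgeR adjusted p = 0.0114), and *Asb4* from between 9.33 and 16.8 to 66.4 (2.66, SE 0.32, edgeR adjusted p = 0.0152). Without E7.75 replicate 1, the control from the KO's own experiment, edgeR called 338 genes, 318 of them higher, and without E7.75 replicate 2 it called 2, so the number of calls hangs on single controls. With experiment as a covariate the contrast came down to the KO against E7.75 replicate 1, the only control in its experiment. Genotype and age cannot be told apart in that alternative, so it is no check on the 6.

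The KO lay below every control for 17 of 23 somite and segmentation genes, 12 of 17 presomitic genes and 15 of 19 cranial and pharyngeal genes. It did so for 14 of 17 retinoic acid genes, 22 of 35 Hox genes and 18 of 24 FGF, Notch and Wnt genes, beside 36.8% of all genes. It did so for 0 of 9 lateral plate genes, 0 of 8 endoderm genes and 0 of 7 epiblast and streak genes, and for 4 of 8 cardiomyocyte genes. Lists outside the mesoderm were low as well, with 4 of 5 extra-embryonic ectoderm genes and 5 of 8 neural and surface ectoderm genes below every control, and so were 3 of 5 intermediate mesoderm genes. Cells outside the *Meox1* partner group express many of these genes too.

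*Hes7*, the oscillating segmentation repressor, stood at 0.466 CPM in the KO against 24.5 to 45.2 in the controls (adjusted p = 0.629 by edgeR). *Pcdh19* stood at 0.854 against 10.9 to 27.3 (0.511), *Ripply2* at 0.0776 against 1.53 to 8.999 (0.623) and *Pax3* at 0.349 against 1.67 to 13.4 (0.476). With DESeq2 *Pcdh19* (adjusted p = 0.0207) and *Pax3* (0.0204) passed, and *Hes7* and *Ripply2* did not. Not all segmentation genes were low in the KO. *Mesp2* stood at 3.16 CPM, within the control range of 1.75 to 3.35, and *Rspo3* at 64.2, within 58.5 to 106. Of the 23 somite and segmentation genes, 2 were above every control, beside 9.81% of all genes. They were *Cer1*, at 73.2 CPM against 3.91 to 51.1, and *Hes1*, at 38.3 against 8.66 to 35.5. *Cer1* is also on the endoderm list, where the KO lay above every control for 5 of 8 genes. Sums over an embryo cannot tell which cells its UMIs came from. The presomitic genes *Tbx6*, at 5.47 against 17.0 to 45.4, and *Msgn1*, at 9.37 against 28.1 to 101, were lower in the KO but still had 282 and 483 UMIs, and the presomitic rule was met by 160 KO cells, or 1.24%, against 5.11% to 18.1% of the late controls.

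Among retinoic acid genes, *Stra6* stood at 1.47 CPM in the KO against 6.38 to 14.5 (adjusted p = 0.437 by edgeR), *Crabp2* at 23.4 against 117 to 220 (0.561) and *Meis1*, a homeobox partner of Hox proteins that responds to retinoic acid, at 1.07 against 7.21 to 16.9 (0.454). *Cyp26a1* was above every control, as were 9.81% of all genes, at 60.3 against 15.7 to 38.6 (0.474). None of the 4 passed with edgeR, and with DESeq2 *Stra6* (adjusted p = 0.0210) and *Meis1* (0.0155) did.

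Among Hox genes, *Hoxa2* stood at 0.194 CPM in the KO against 5.04 to 7.23 (edgeR adjusted p = 0.550), *Hoxb1* at 5.68 against 42.1 to 102 (0.624) and *Hoxb9* at 0.621 against 1.94 to 20.2 (0.602). The lateral plate gene *Hand1* was above every control, at 189 against 72.8 to 159, and the streak gene *Eomes* at 50.7 against 0.404 to 8.83 (edgeR adjusted p = 0.268, DESeq2 adjusted p = 0.0157).

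Within the experiment shared by the KO and E7.75 replicate 1, the KO was lower for 18 of 23 somite and segmentation genes and 14 of 17 presomitic genes. It was lower for 14 of 17 retinoic acid and 29 of 35 Hox genes, beside 48.8% of all genes. It was also lower for 8 of 8 cardiomyocyte genes (median log2 ratio -3.15), 4 of 5 extra-embryonic ectoderm, 4 of 5 intermediate mesoderm and 6 of 8 neural and surface ectoderm genes. The log2 ratio of CPM in that pair, with nothing added to either side, was -7.60 for *Aldh1a2*, -5.80 for *Meox1*, -4.63 for *Foxc2*, -3.12 for *Tcf15* and -2.43 for *Foxc1*. The pair is 1 embryo labelled late E7.5 and 1 labelled E7.75, so genotype and age cannot be told apart in it.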

How the data were processed

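Whole embryos were dissociated and captured on the 10x Chromium 5′ platform, and the authors made the deposited UMI counts per gene and barcode with Cell Ranger 3.0.2 using the mm10 genome plus both reporter sequences. The counts are raw, 1 matrix per embryo, and the cells were not annotated in the files used here, so the cells were chosen by the UMI rule and not by clustering. Cells over the limits on mitochondrial UMIs, UMIs and genes were removed, leaving 93701 of 99474 barcodes. Doublets were scored with Scrublet, marking 0.8% per 1000 barcodes, and kept in the main values.

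Groups came from the labels. The members and gene lists were chosen with earlier results of these data known. Counts were summed per embryo and tested with edgeR 4.0.16 (quasi-likelihood, TMM, filterByExpr, Benjamini-Hochberg, threshold 0.05) in R 4.3.3, with 1 mean per stage and genotype, and with DESeq2 1.42.0 as an alternative. Each fit was tested on simulated data, where it missed most 2-fold changes, so a gene that was not called may still differ. Shares were tested by exact permutation of the KO label within stages. CPM is UMIs per 1000000 UMIs of the summed cells, and log2 ratios add 1 CPM to each side. Intervals are 95% Clopper-Pearson and, with limits at 0 counts (3 counts of the total), cover counting error only. Visceral endoderm cells had at least 3 UMIs of *Ttr*, 3 of *Apoa1* and 1 of *Amn*. The labels give each embryo an experiment, which the late KO shared with E7.75 control replicate 1 and which was a covariate in an alternative, but no litter. Litters and embryos vary in age. The p-values of the gene tests rest on a spread between embryos that all groups share. The lone KO embryo of each stage adds nothing to it and is assumed to vary like the others. The permutation p-values are the share of label arrangements with a difference at least as large. Named genes were the 5 rule genes, 2 to 6 examples a list, the 20 leading genes and genes past each test. Some genes are on more than 1 list, among them *Cer1*, *T*, *Cdx2*, *Otx2* and *Hoxb1*. The alternatives were depth, rule, doublet, filter, normalization, tool, experiment and leave-one-out settings. A few genes are not reported here.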

Additional observations from a re-analysis of the deposited data

Results flagged for a closer look

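Of 35 groups of 4 or 5 embryos tested for an embryo far from the others, 3 were past Dixon's critical value (0.829 for 4 embryos, 0.71 for 5), and chance gives about 1 in 20. The share of *Meox1* partner cells in E7.75 control replicate 2 was 11.3%, against 4.47% to 5.41% in the other 3 late controls (gap over range 0.862). *Mesp1* over the whole embryo stood at 60.4 CPM in late E7.5 control replicate 1, against 3.21 to 12.3 in the other 3 (0.840). *Pcdh8* in the *Meox1* partner cells stood at 48.8 CPM in E7.75 control replicate 2, against 24.4 to 28.3 (0.840).

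Ai14 UMIs also occurred where the reporter was absent by the study's notes. The *Meox1* partner cells of early E7.5 control replicate 1 held 15 (1.93 CPM) and those of late E7.5 control replicate 1 held 10 (1.43 CPM), against 27.8 to 42.6 CPM in the late controls that carried it.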

How the results depend on the processing

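The share difference between KO and control kept its direction in every alternative run, with the exact permutation p above 0.05. At the late stage the design fixed that, since p could not go below 0.2. Over stages the difference lay between -0.968 and -2.89 points under other rules, thinning and doublet settings. It lay between -2.25 and -3.07 with 1 control left out, and was -0.962 over the early and middle stages alone. At the late stage it lay between -2.51 and -7.59, and between -4.84 and -7.10 with 1 control left out. In the whole-embryo comparison the 6 calls became 122 with DESeq2 (68 higher, 54 lower), 2 with library size alone, 1 with experiment as a covariate, and 0 with late embryos only and with late E7.5 controls only. Leaving out 1 control gave 2 to 338 calls. For *Meox1*, *Tcf15*, *Foxc2*, *Foxc1* and *Aldh1a2* the direction held in all 12 alternatives. The rule used the counts of these genes, so this is a description and no support. Of 617 alternative values over 50 named genes, 574 kept their side of the threshold, 10 gained it (9 of them with DESeq2), 32 lost it and 1 reversed, *Rspo3* with library size alone (log2 fold change -0.26). The cause of these shifts was not tested. The comparison with age gave 0 calls in every setting; late E6.5 did not enter that fit, having 5 cells. The gene comparison of late KO with late control within *Meox1* partner cells, and its alternatives, were not run, since the KO had 0 such cells. The shallow experiment limits shares of cells with a UMI in the KO and in E7.75 replicate 1. No paired analysis was possible because the groups compared share fewer than 2 replicate numbers; the experiment, which embryos do share, entered as the covariate above.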
